A study of Mus musculus with 8 samples.

Results

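Tigger, Charlie, URR1, Arthur and Cheshire elements are DNA transposons, and their reads were followed in whole testis RNA of mice with an IAP insertion in Dnmt3c. Members were the rows of the repeat tables whose names start with one of these 5 words, which gave 66 of 903 repeat families listed at any age. There were 34 Charlie, 24 Tigger, 5 Arthur and 2 URR1 families, and Cheshire. A row spelled in capitals, TIGGER5_B, falls outside the rule and was not counted. The rule uses names only, although it was proposed with earlier results of these data known.

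The mutants were homozygous males (Dnmt3C IAP/IAP) and the controls were heterozygous males (Dnmt3C IAP/WT), so the controls carry the IAP allele on 1 chromosome. All were on a hybrid background of C3H/HeJ and C57BL/6J. Total RNA of whole testis was sequenced in 8 libraries, with 1 mutant and 1 control at 16.5 days post coitum (dpc), 1 mutant and 1 control at 10 days post partum (dpp), and 2 mutants and 2 controls at 20 dpp. Whether each library is a different animal is not said in the labels, and p-values then measure only the spread among these libraries, which may be technical.

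DNA transposons move by cutting their DNA out and pasting it elsewhere with a transposase, and they make no RNA intermediate as LINE-1 and IAP elements do. Tigger elements are relatives of pogo in the Tc1/mariner superfamily. Charlie, URR1 and Cheshire belong to the hAT superfamily, named after hobo, Ac and Tam3, as does Arthur. Their mouse copies are old and are regarded as unable to transpose, and they lie mostly in introns, untranslated regions and between genes, where host transcripts can run through them. DNMT3C methylates promoters of young retrotransposons in male fetal germ cells, so these families serve as a baseline of repeat reads beside the retrotransposons.

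Gene reads ran from 57166311 to 155742823 per library, and repeat families took between 2.34% and 5.52% of counted reads. At 20 dpp, all 15 of 16 markers of pachytene and later spermatocytes that could be measured fell in mutants (median log2 change -5.79), as did all 11 measured of 13 spermatid markers (median -6.17). Among 14 Sertoli cell markers 12 rose and 1 fell (median 0.90), and among 14 markers of undifferentiated spermatogonia 9 rose and 1 fell (median 1.05). Among 8 markers of differentiating spermatogonia 6 rose and 1 fell (median 0.89), and among 16 early meiotic markers 2 rose and 11 fell (median -0.76). Of all genes 26.4% rose and 33.1% fell. Summed pachytene marker levels were 61175 and 83178 normalised reads in mutants, against 1625630 and 1852140 in controls; a normalised read is a read divided by the authors' library factor, which was set within each age. For differentiating spermatogonia the summed level went the other way from the median. It was 57177 and 63444 normalised reads in mutants, against 78686 and 112419 in controls. Fewer cells of a type and less RNA per cell cannot be told apart in whole tissue. At 10 dpp and 16.5 dpc the medians of these lists lay between -0.09 and 0.22. The part of cell makeup in the results that follow was not tested. Dnmt3c itself was not analysed here, and the genotypes rest on the labels alone.

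The same families are listed in every library of an age, and the lowest count of any was 5 reads. Of the 66 members, 51 were listed at every age, 4 at 10 and 20 dpp, and 8 at 20 dpp alone. Tigger1a_Art was listed at 16.5 dpc and 10 dpp, Tigger8 at 16.5 dpc and Charlie16a at 10 dpp. No member with fewer than 5 reads in a library is therefore among those measured at that age. A member almost absent from either genotype would not be seen, whatever its level in the other.

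Most of the reads came from very few families. URR1B and URR1A, a pair of rodent elements, held 59.1% and 59.2% of member reads in 20 dpp mutants and 55.8% and 56.6% in 20 dpp controls. At 10 dpp they held 41.8% in mutant testis and 43.0% in control testis, and at 16.5 dpc 41.7% in mutant testis and 42.4% in control testis. The URR1 share thus differed more between 20 dpp and the younger ages than between genotypes. Charlie1a, Charlie8, Tigger1 and Charlie1 came next, and 56 of the 63 members measured at 20 dpp averaged under 1000 normalised reads.

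The summed level of the members differed little between genotypes on the deposited scale. At 16.5 dpc the members summed to 17351 normalised reads in mutant testis and 19186 in control testis, and at 10 dpp to 21085 in mutant testis and 21473 in control testis. At 20 dpp the sums were 47344 and 55029 in mutants and 47803 and 41722 in controls, or 51187 ± 5434 in mutants and 44763 ± 4300 in controls (SD, n = 2 each). The 20 dpp ranges of the genotypes overlapped. No test was run on a sum over members.

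The scale matters for this sum. Per 1000000 gene reads (written RPM here) the members summed to 522.0 and 587.0 in 20 dpp mutants, against 332.3 and 309.0 in 20 dpp controls, a log2 difference of 0.79 in place of 0.19. On that scale the 10 dpp libraries stood at 318.6 in mutant testis and 327.1 in control testis, and the 16.5 dpc libraries at 266.0 in mutant testis and 294.6 in control testis. As a share of all family reads the order was the other way, with 0.894% and 1.09% in 20 dpp mutants and 1.29% and 1.29% in 20 dpp controls. Scaling by total gene reads moved the median log2 change of all genes from 0.05 to 0.64, so changes are given relative to the deposited scaling unless another is named.

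By group, the sums of Charlie and URR1 families were higher in mean in 20 dpp mutants and those of Tigger and Arthur families lower, on the deposited scale and with no test. The Charlie families summed to 14197 ± 1182 normalised reads in 20 dpp mutants and 12700 ± 1673 in 20 dpp controls, and the URR1 pair to 30274 ± 3257 in mutants and 25153 ± 2182 in controls (SD, n = 2 each). The Tigger families summed to 5341 ± 717 in mutants and 5528 ± 241 in controls. Arthur families, the group with the fewest reads, summed to 306.8 ± 48.1 in mutants and 504.7 ± 173.2 in controls. In RPM the order of the Tigger families turned, at a mean of 57.8 in 20 dpp mutants and 39.6 in 20 dpp controls, and that of the Arthur families narrowed to 3.32 in mutants and 3.60 in controls. The URR1 pair held 110.9 RPM in mutant testis at 16.5 dpc, 133.2 at 10 dpp and a mean of 328.0 at 20 dpp, beside 125.0, 140.5 and 180.2 in control testis at those ages.

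**Figure D1:**
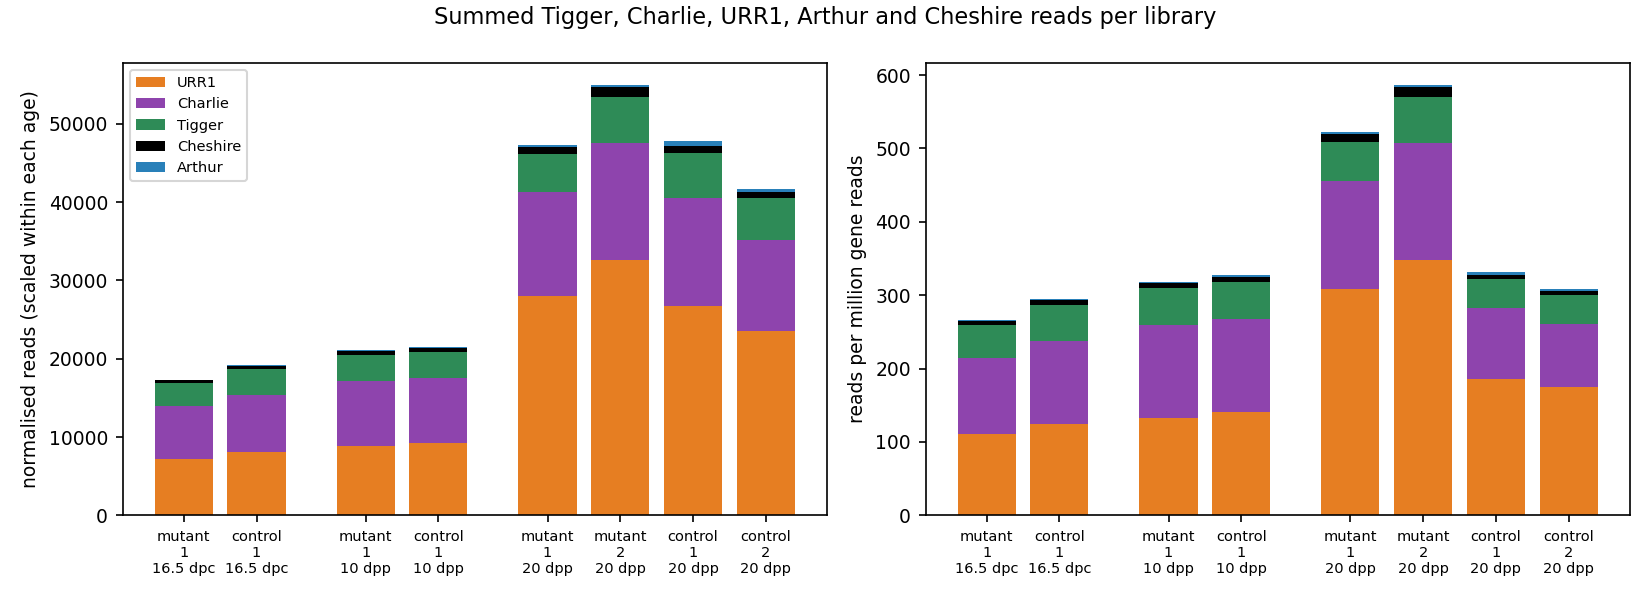
Summed reads of the members in each of the 8 libraries, stacked by family group, in normalised reads (left) and per 1000000 gene reads (right), with each mutant bar left of its control. At 20 dpp the left bars overlap between genotypes (47344 and 55029 in mutants, 47803 and 41722 in controls), and the right bars do not (522.0 and 587.0 in mutants, 332.3 and 309.0 in controls).

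The first comparison asks which of the families differed between genotypes at 20 dpp, when the first wave of germ cells reaches late meiosis in controls. Charlie22a, Tigger20a and Charlie8 rose in mutants, and Charlie10 and Tigger17 fell. With limma's moderated test, fitted on genes and families together and adjusted by Benjamini-Hochberg over all 888 families, 3 of 63 members passed at 0.05 as higher and 2 as lower. Over all families 4.73% passed as higher and 7.21% as lower, so the members' 7.94% in either direction lay below the 11.9% of all families. The members' median log2 change was 0.27, beside 0.13 over all families. An unadjusted p under 0.05 was found for 15 members (23.8%), beside 29.4% of all families.

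Charlie22a had the largest change of any member. It had 265.0 and 279.8 normalised reads in mutants, from 372 and 284 reads, against 35.6 and 21.7 in controls, from 22 and 25 reads. Both mutant libraries were far above both control libraries. The log2 change was 3.25 ± 0.46 (SE, n = 2 each), 9.49-fold, with a limma adjusted p of 0.0052, and it passed in all 13 alternatives tried, with log2 changes between 2.90 and 3.83. At 10 dpp Charlie22a was nearly silent, at 9 reads in mutant testis and 11 in control testis, and it was not listed at 16.5 dpc. In RPM it stood at 0.139 in the 10 dpp mutant and at 2.92 and 2.98 in 20 dpp mutants, while the controls stood at 0.164 at 10 dpp and 0.247 and 0.161 at 20 dpp.

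Tigger20a had 155.3 and 188.2 normalised reads in mutants, against 35.6 and 18.2 in controls. The genotypes did not overlap, and the log2 change was 2.70 ± 0.52, 6.49-fold (limma adjusted p = 0.018). Its adjusted p was 0.0537 with mutant replicate 2 left out and 0.062 with control replicate 2 left out. Its course with age differed from that of Charlie22a. In RPM the mutants held 0.215 at 16.5 dpc, 0.740 at 10 dpp and 1.71 and 2.01 at 20 dpp, whereas the controls held 0.175, then 0.866, then 0.247 and 0.135.

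Charlie8, an abundant family, had 2685 and 2529 normalised reads in mutants, against 1537 and 1441 in controls. The log2 change was 0.81 ± 0.17, 1.75-fold (limma adjusted p = 0.025). The call was lost when the families set the scale (log2 change 0.70, adjusted p = 0.123), and without mutant replicate 1 (0.063), control replicate 1 (0.0897) and control replicate 2 (0.115). In RPM Charlie8 stood at 29.6 and 27.0 in 20 dpp mutants, beside 27.2 in the 10 dpp mutant. The 20 dpp controls stood at 10.7 and 10.7, beside 27.2 in the 10 dpp control. On that scale the 20 dpp mutants stood near the 10 dpp level and the 20 dpp controls below it. Charlie8 was lower at 16.5 dpc, at 16.8 in mutant testis and 16.3 in control testis. The 20 dpp gap depends on the scale, with a log2 change of 1.40 by total gene reads in place of 0.81. That scale also moved the median log2 change of all genes from 0.05 to 0.64.

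Charlie10 had 53.4 and 126.1 normalised reads in mutants, against 661.1 and 451.6 in controls. It fell by 2.72 ± 0.49 on the log2 scale (limma adjusted p = 0.013), by 2.11 without mutant replicate 1 and by 3.33 without mutant replicate 2. Without control replicate 1 its adjusted p was 0.0785. Tigger17 had 179.5 and 141.9 normalised reads in mutants, against 607.8 and 563.4 in controls, and fell by 1.87 ± 0.32 (limma adjusted p = 0.011). Leaving out control replicate 1 gave it an adjusted p of 0.0726, and leaving out control replicate 2 one of 0.0515.

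Both families were scarce at the younger ages and highest in 20 dpp controls. In RPM Charlie10 stood in mutants at 0.498 at 16.5 dpc, 0.616 at 10 dpp and 0.589 and 1.35 at 20 dpp, and in controls at 0.385, then 0.672, then 4.60 and 3.35. Tigger17 stood in mutants at 0.188, then 0.539, then 1.98 and 1.51, and in controls at 0.192, then 0.672, then 4.22 and 4.17. The Charlie10 level of mutant replicate 1 at 20 dpp was no higher than that of the 10 dpp mutant, and the Tigger17 level of each 20 dpp mutant was higher. Pachytene and spermatid markers were lower in the same mutants, and their part in these falls was not tested.

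**Figure D2:**
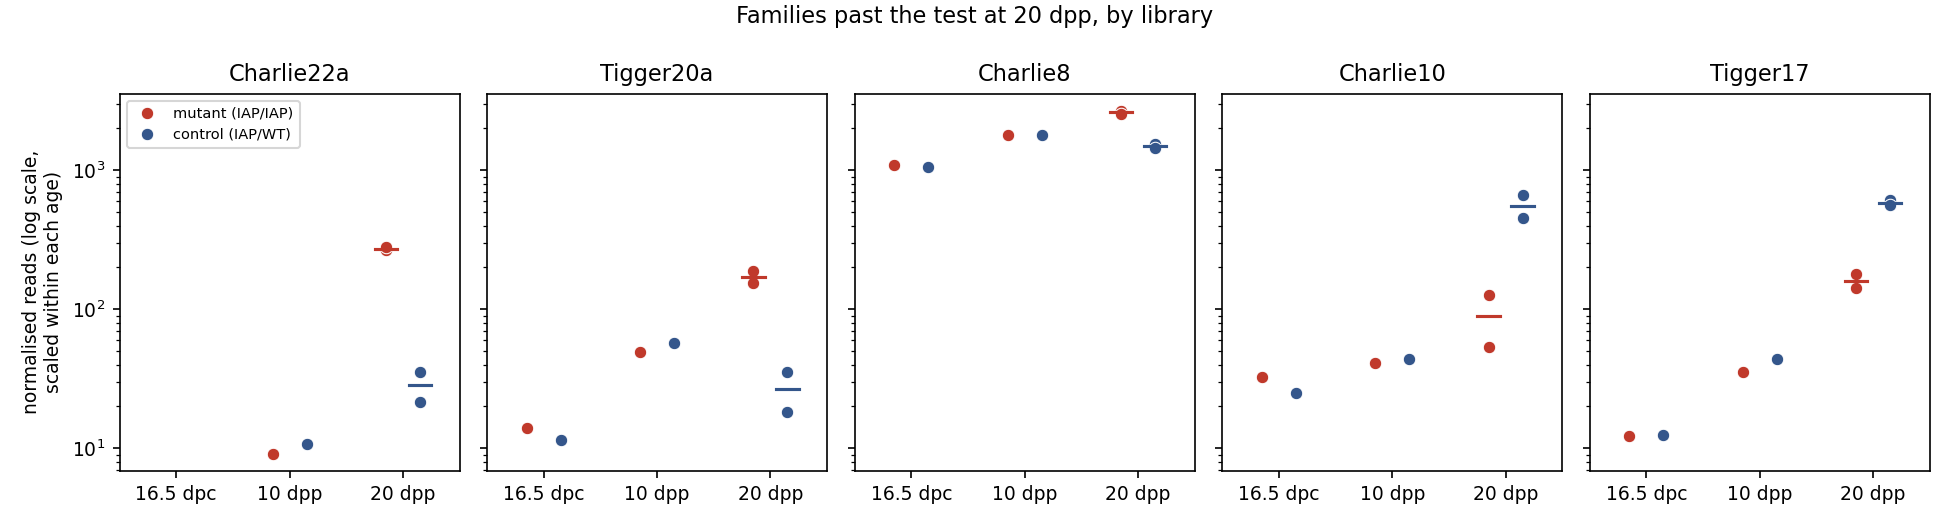
Normalised reads (log scale, scaled within each age) of the 5 families that passed at 20 dpp, with mutant libraries in red left of control libraries in blue, a point per library and a line at the mean of 2 libraries. At 20 dpp the libraries of the genotypes are separate in every panel (for Charlie22a 265.0 and 279.8 in mutants, 35.6 and 21.7 in controls). At 10 dpp and 16.5 dpc they lie close together where listed. Charlie22a was not listed at 16.5 dpc and had 9 reads in mutant testis and 11 in control testis at 10 dpp.

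None of the other families with the most reads passed. URR1B had 14834 and 17064 normalised reads in mutants, against 14456 and 12777 in controls (log2 change 0.23 ± 0.13, 95% interval -0.09 to 0.54, limma adjusted p = 0.307). URR1A had 13137 and 15514 in mutants, against 12240 and 10833 in controls (log2 change 0.31 ± 0.14, 95% interval -0.01 to 0.63, limma adjusted p = 0.186). The mutant and control libraries of each URR1 family did not overlap. Neither passed on the deposited scale, and both passed with scaling by total gene reads (log2 changes of 0.82 and 0.91 for URR1B and URR1A).

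Charlie1a had 3935 and 4892 normalised reads in mutants, against 3298 and 2886 in controls (log2 change 0.51 ± 0.17, limma adjusted p = 0.103). Charlie1 had 1201 and 1440 in mutants, against 2620 and 1949 in controls (log2 change -0.78 ± 0.22, limma adjusted p = 0.067). Neither passed, and the libraries of the genotypes did not overlap in either family. A fit of the families apart from the genes had infinite prior degrees of freedom. Its p-values therefore rest on the trend over families and do not measure the spread between a family's own libraries. Charlie1a passed with total gene reads at a log2 change of 1.10 (adjusted p = 0.0023), in a fit of the families apart (0.034) and without mutant replicate 1 (0.038). Charlie1 passed in a fit of the families apart (0.0011) and without mutant replicate 2 (0.047), and its log2 change was -0.18 with total gene reads. Tigger1 had 1527 and 1812 in mutants, against 2059 and 2375 in controls (log2 change -0.41 ± 0.19, limma adjusted p = 0.202), and its log2 change was 0.18 with scaling by total gene reads.

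Cheshire had 904.6 and 1230.4 normalised reads in mutants, against 898.8 and 855.6 in controls (log2 change 0.27 ± 0.25, limma adjusted p = 0.503), and it passed with total gene reads at a log2 change of 0.86 (adjusted p = 0.026). Of the 5 Arthur families none passed, and all 5 were listed at 20 dpp, where 1 had an unadjusted p under 0.05. Arthur2 had 97.6 and 113.3 normalised reads in mutants, against 386.3 and 215.8 in controls (log2 change -1.45 ± 0.43, limma adjusted p = 0.073). It passed with scaling by the families (0.036). It also passed in a fit of the families apart (1.0e-04), which does not use the spread of its own libraries. Arthur1 had 111.1 and 146.8 in mutants and 122.9 and 91.9 in controls, with overlapping libraries. Arthur1A, Arthur1B and Arthur1C had log2 changes of -0.48, -0.19 and -0.82 with standard errors between 0.56 and 0.72.

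**Figure D3:**
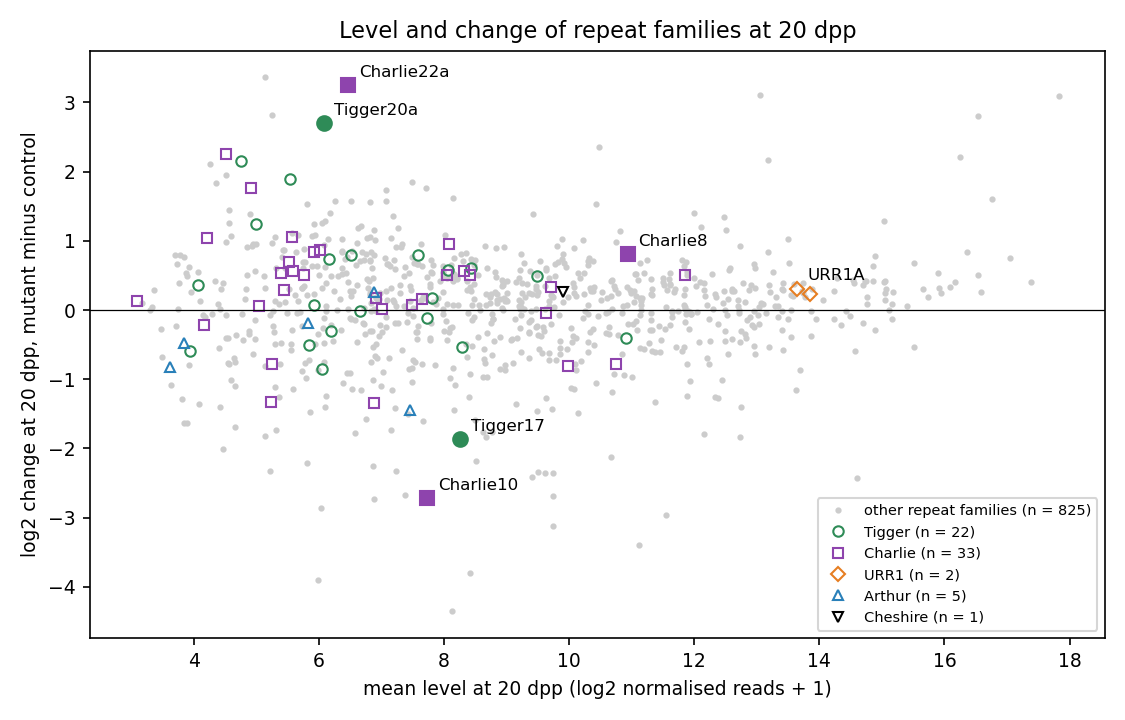
Mean level at 20 dpp (log2 of normalised reads plus 1) against log2 change, mutant minus control, for 888 repeat families, with the members marked by group and the 5 members that passed filled. The abundant URR1 families lie near 0 (0.23 and 0.31), and the changes of scarce members reach 3.25 for Charlie22a and -2.72 for Charlie10.

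The spread of the members widened as their level dropped. The 7 members that averaged at least 1000 normalised reads had log2 changes between -0.80 and 0.81, and the 56 below that level between -2.72 and 3.25. A log2 change of at least 1 in size was seen in 22.2% of members and 16.8% of all families. The median standard error was 0.47 for members and 0.31 for all families, so scarce members with large changes could miss the threshold. Charlie13b and Tigger16b, named after their values were seen, were 4.77-fold and 4.47-fold higher in mutants and did not pass (limma adjusted p = 0.079 and 0.080). In 31 members (49.2%) both mutant libraries lay above both controls, and in 11 (17.5%) both lay below. The same was true of 36.9% and 26% of all families, so a library order of this kind was common among repeats.

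Charlie and Tigger families each included members that rose and members that fell. Of 33 Charlie families 2 rose and 1 fell (median log2 change 0.50, range -2.72 to 3.25), and of 22 Tigger families 1 rose and 1 fell (median 0.27, range -1.87 to 2.70). The DNA transposons named MER, which include short relatives of Charlie and Tigger, had 1 of 44 higher and 0 lower by limma (median 0.19), and 9 had an unadjusted p under 0.05. Among other old repeats, 0 of 6 L2 and L3 families and 0 of 5 MIR families passed by limma (medians 0.17 and 0.01), and none had an unadjusted p under 0.05. Of 121 MaLR families 4 rose and 8 fell (median 0.10). Of 6 L1Md families, the younger LINE-1 group, 4 rose and 0 fell (median 1.78). The differences between these groups were not tested. TIGGER5_B, the row outside the rule, had a log2 change of 0.49 ± 0.54 (limma adjusted p = 0.586).

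The number of members that passed depended on the scaling. With total gene reads as the scale 25 members were higher and 2 lower, beside 42.1% and 4.39% of all families, and the members' median was 0.86 beside 0.72. With scaling by the families themselves 2 were higher and 3 lower, beside 3.15% and 7.43% of all families. Fitted apart from the genes, 10 were higher and 6 lower, beside 12.7% and 14.2% of all families. Charlie22a and Tigger20a were higher, and Charlie10 and Tigger17 lower, under each of these.

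The ratio of reads between families that share a base name does not depend on any scaling, and for 3 such pairs it was lowest in 20 dpp controls. These pairs, of Charlie1, Charlie1a and Charlie1b and of Tigger17 and Tigger17a, were chosen after their values were seen and were not tested. There were 3.28 and 3.40 Charlie1a reads per Charlie1 read in 20 dpp mutants, against 1.26 and 1.48 in 20 dpp controls. At 10 dpp the ratio was 4.27 in mutant testis and 3.75 in control testis, and at 16.5 dpc 4.61 in mutant testis and 4.97 in control testis. The 20 dpp controls thus stood apart from the other 6 libraries.

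Charlie1a reads per Charlie1b read were 5.20 and 6.30 in 20 dpp mutants, against 2.18 and 2.43 in 20 dpp controls. At 10 dpp they were 7.70 in mutant testis and 5.88 in control testis, and at 16.5 dpc 7.02 in mutant testis and 5.36 in control testis. Tigger17a reads per Tigger17 read were 4.10 and 6.94 in 20 dpp mutants, against 1.15 and 0.931 in 20 dpp controls, 16.5 in mutant testis and 12.3 in control testis at 10 dpp, and 35.0 in mutant testis and 35.6 in control testis at 16.5 dpc. This ratio was thus lower at each later age in both genotypes, and the 20 dpp mutants also lay below all younger libraries. Reads of families with similar sequence can be assigned to either one, and how the authors assigned them is not given in the sources used here. URR1A reads per URR1B read showed no such shift, at 0.886 and 0.909 in 20 dpp mutants and 0.847 and 0.848 in 20 dpp controls.

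**Figure D4:**
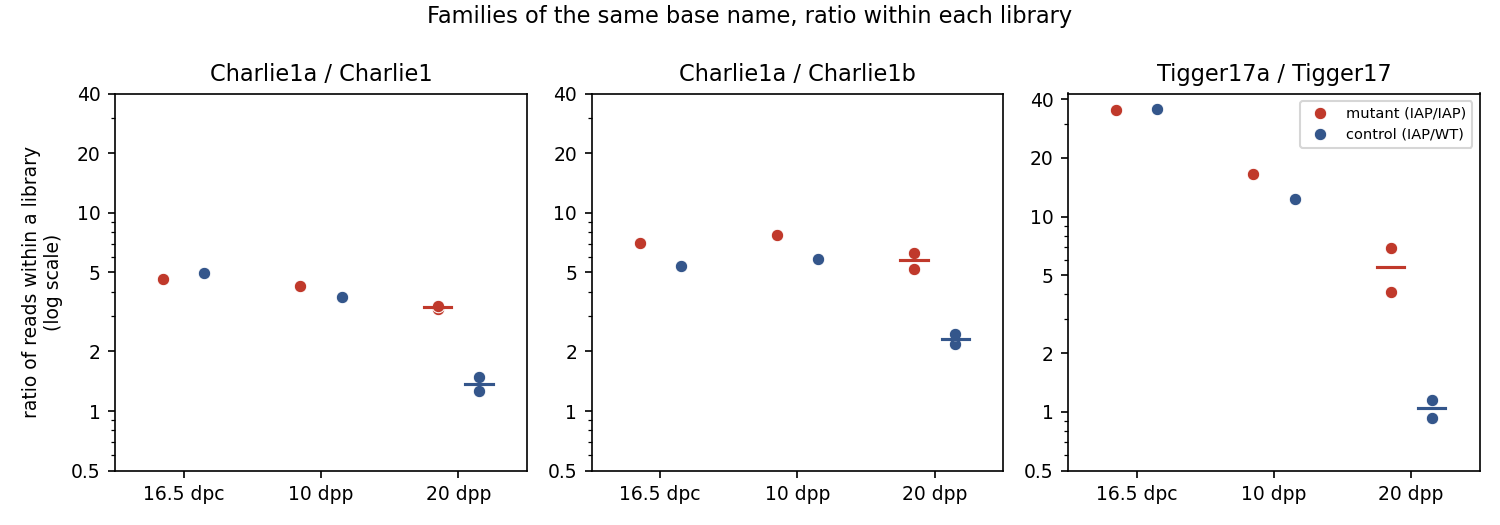
Ratio of reads within each library (log scale) for 3 pairs of families that share a base name, with mutant libraries in red left of control libraries in blue and a line at the mean of 2 libraries. In each panel the 20 dpp controls are lowest, for example with 3.28 and 3.40 Charlie1a reads per Charlie1 read in 20 dpp mutants against 1.26 and 1.48 in 20 dpp controls.

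The 10 dpp comparison rests on 1 library of each genotype, without replicates, and there no member was listed by the rule for single libraries. That rule asks for a ratio of at least 2-fold, at least 50 reads in both libraries together and an exact binomial 95% interval that excludes 1, and such intervals cover counting error only. Of the 57 members measured, 37 reached the minimum of 50 reads. By the rule 0 of 57 members were listed, beside 1.82% of all 823 families (1.58% higher and 0.243% lower), and 0 were listed at 1.5-fold, beside 3.89% of all families. Charlie9, at 9 reads in mutant testis and 23 in control testis (0.407-fold, interval 0.166 to 0.913), fell short of the minimum alone and is named after its values were seen. The members' median log2 ratio was -0.06 and that of all families was 0.00. URR1B was 0.964-fold (interval 0.926 to 1.00), URR1A 0.946-fold (0.905 to 0.988), Charlie1a 1.03-fold (0.984 to 1.08) and Charlie8 1.01-fold (0.945 to 1.08) in the mutant relative to the control. The 5 families that passed at 20 dpp had ratios between 0.809 for Tigger17 and 1.01 for Charlie8 at 10 dpp, and each interval included 1.

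At 16.5 dpc no member was listed as higher and 1 of 53 as lower, beside 1 and 3 of all 806 families (0.124% and 0.372%). Of the 53 members, 33 reached the minimum of 50 reads. The listed member was Tigger1a_Art, with 18.4 normalised reads in mutant testis and 51.3 in control testis, from 21 and 45 reads (0.359-fold, interval 0.203 to 0.616). At 10 dpp the same family had 52.0 normalised reads in mutant testis and 64.7 in control testis (0.804-fold, interval 0.547 to 1.18). URR1B was 0.865-fold (interval 0.830 to 0.902) in the 16.5 dpc mutant, URR1A 0.921-fold (0.877 to 0.968) and Charlie1a 0.893-fold (0.850 to 0.938). The median log2 ratio was -0.08 for members and -0.09 for all families. At 1.5-fold 4 of 53 members were lower and 0 higher, beside 14 of 806 families lower (1.74%) and 2.48% in either direction. The lower members were thus a larger share than among all families, and the difference was not tested. With at least 200 reads 0 members were lower, beside 0.248%. The 3 further members at 1.5-fold were Tigger6b, Tigger9b and Charlie4, named after their values were seen, with ratios of 0.514, 0.606 and 0.621. At 10 dpp the ratios of Tigger6b and Tigger9b were above 1, at 1.44 and 1.05, and that of Charlie4 was 0.728.

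No member passed in the fits that joined the ages. Across all 8 libraries with age as a block, 0 of 51 members and 0% of 785 families passed by limma. An unadjusted p under 0.05 was found for 2 members (3.92%), beside 5.35% of families (Charlie1b, log2 difference -0.63 ± 0.19, limma adjusted p = 0.703, and Tigger17, -1.02 ± 0.42, also 0.703). When the genotype difference at 20 dpp was set against that at 10 dpp, 0 of 51 members passed by limma beside 1.78% of families, and 3 members (5.88%) had an unadjusted p under 0.05, beside 11.5% of families. The leading member was Tigger20a, whose log2 change was larger at 20 dpp by 2.91 ± 0.94 (limma adjusted p = 0.284). Against 16.5 dpc, 0 members passed by limma, beside 2.04% of families, and 7 (13.7%) had an unadjusted p under 0.05, beside 13.6% of families. There Charlie10 led with -3.08 ± 0.93 (limma adjusted p = 0.193). A change in the genotype difference with age was therefore not shown for any member, and the fit assumes that single libraries vary like the replicated ones. Charlie22a was not in these fits because it was not listed at 16.5 dpc.

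The members also give a scale within each library for the retrotransposons, with no library factor involved. For every 100 member reads there were 1865 and 951 L1Md_T reads in 20 dpp mutants, against 188 and 168 in 20 dpp controls. L1Md_T stood at 569 in mutant testis and 316 in control testis at 10 dpp, and at 511 in mutant testis and 461 in control testis at 16.5 dpc. The genotypes differed 7.91-fold in mean at 20 dpp, 1.80-fold at 10 dpp and 1.11-fold at 16.5 dpc. L1Md_A reads per 100 member reads were 1298 and 187 in 20 dpp mutants, against 84.4 and 76.1 in controls, and 254 in mutant testis and 97.04 in control testis at 10 dpp.

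IAPEz-int, the internal part of an IAP family, gave 223 and 652 reads per 100 member reads in 20 dpp mutants, against 140 and 145 in controls. At 10 dpp it gave 1191 in mutant testis and 340 in control testis. The mutants themselves lay far apart at 20 dpp for L1Md_A and IAPEz-int. Every mutant library lay above the controls of its age for all 3 elements, also at 16.5 dpc, where the ratios were smallest. The member sum at 16.5 dpc was itself lower in the mutant (17351 against 19186 normalised reads), which raises these ratios. On the deposited scale the median log2 ratio at 16.5 dpc was -0.0015 for the 6 L1Md families. For the 25 IAP families it was 0.19, beside -0.09 over all families. DNA transposons named MER gave a much more even count, at 40.7 and 40.9 reads per 100 member reads in 20 dpp mutants and 41.3 and 42.2 in 20 dpp controls. At 10 dpp they gave 29.6 in mutant testis and 29.6 in control testis, and at 16.5 dpc 29.0 in mutant testis and 29.0 in control testis.

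**Figure D5:**
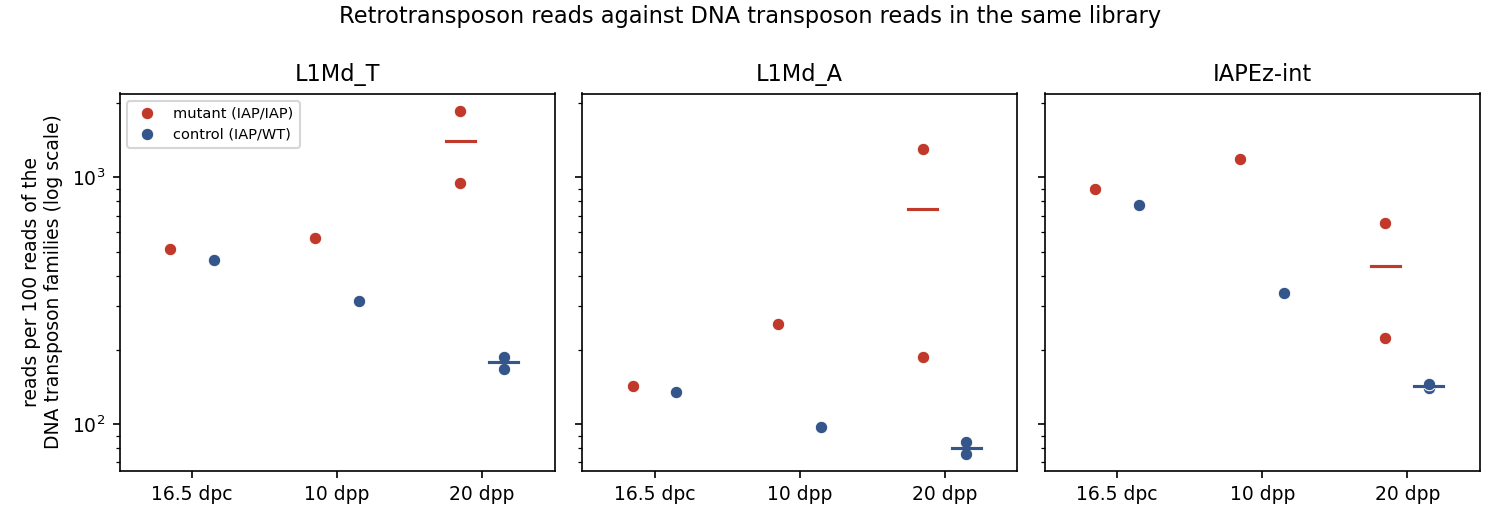
Reads of L1Md_T, L1Md_A and IAPEz-int per 100 member reads of the same library (log scale), with mutant libraries in red left of control libraries in blue and a line at the mean of 2 libraries. L1Md_T stands at 1865 and 951 in 20 dpp mutants and 188 and 168 in 20 dpp controls, and at 511 in mutant testis and 461 in control testis at 16.5 dpc.

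Some host genes descend from transposases of the same superfamilies, and they changed at 20 dpp in both directions. Of 9 measured genes from pogo and Tigger-like transposases 2 rose and 2 fell, and of 6 from hAT transposases 2 rose and 3 fell, beside 26.4% of all 17194 genes that rose and 33.1% that fell. With total gene reads the counts were 4 higher and 1 lower of 9, with Tigd3 (log2 change 1.26) and Jrkl (0.82) then past the threshold, and 3 higher and 1 lower of 6. With scaling by the families they were 1 higher and 2 lower of 9, and 0 higher and 3 lower of 6. Of all 17194 genes, 8427 were higher and 3795 lower with total gene reads, and 2972 higher and 5537 lower with scaling by the families. The median log2 changes of the 2 lists on the deposited scale were -0.33 and -0.45, beside 0.05 over all genes. Their reads are those of the gene tables, not of the repeat families.

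Jrk, a pogo-derived gene (chromosome 15, 74702301 to 74709535 in GRCm38, minus strand), had 1929 and 1859 normalised reads in mutants, against 7198 and 6514 in controls. It fell by 1.85 ± 0.15 on the log2 scale (limma adjusted p = 4.1e-05) and by 1.26 with total gene reads. Pogz, a pogo-derived zinc finger gene (chromosome 3, 94837567 to 94882326), rose 1.68-fold, with 17148 and 18493 in mutants, against 10666 and 10551 in controls (limma adjusted p = 0.0013). Cenpb, whose product binds the centromeric CENP-B box (chromosome 2, 131175182 to 131180067), rose 1.57-fold, with 11459 and 11418 in mutants, against 6763 and 7860 in controls (limma adjusted p = 0.0043, and 0.0545 with scaling by the families). Pogk fell by 0.47, and its log2 change was 0.12 with total gene reads.

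Among the hAT-derived genes Gtf2ird2, whose product carries a Charlie8-like transposase domain fused to a TFII-I part (chromosome 5, 134184019 to 134224355), had 1771 and 1946 normalised reads in mutants, against 3980 and 3689 in controls. It fell by 1.04 ± 0.16 (limma adjusted p = 0.0012) and by 0.45 with total gene reads, while the Charlie8 repeat family rose in the same libraries. Zbed3 and Zbed4 fell by 0.96 and 0.87, and with total gene reads neither passed (log2 changes of -0.37 and -0.27). Zbed5 and Prkrir rose 1.42-fold and 1.40-fold, and both lost the call when the families set the scale (adjusted p = 0.192 and 0.174). Zbed6 had a log2 change of -0.03 on the deposited scale and 0.56 with total gene reads, where it passed. Zbed6 lies inside the Zc3h11a gene, and reads of overlapping genes cannot be told apart without knowing how they were counted.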

How the data were processed

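The deposited values are log2 values without header lines, per gene and per repeat family. Undoing the log2 and the added 1, and multiplying by 1 factor per library, gave whole reads to within 0.01 in 100% of cases. The submitters' processing notes name mm10, TopHat2 2.0.6, HTSeq 0.6.1 and Bowtie 1.0.0 without a role, and how reads on many copies of a repeat were counted is not given in the sources used here. A row named unknown, which held 0.0109% of family reads or less, was left out.

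limma 3.58.1 in R 4.3.3 (eBayes with a trend) was run on the deposited values, genes and families together, with Benjamini-Hochberg adjustment over families and over genes separately, at 0.05. Fold changes refer to log2(value + 1) and so understate changes of scarce families. The 20 dpp fit had 2 residual and 5.21 prior degrees of freedom. The prior was infinite in the fit of the families apart, so its counts and p-values ignore each family's own spread. On simulated counts of 18082 features at 20 dpp, 84% of 2-fold and 100% of 4-fold changes were recovered, with 6 false calls. The simulated spread was a fixed value not taken from these libraries, few features were changed, and genes and families were adjusted together. These rates are therefore not those of the reported test. Most of those features were genes, so the rates do not apply to scarce members. Python 3.11.15 with SciPy 1.17.1 gave exact binomial intervals. Members, lists and the joint fit were chosen with earlier results of these data known. Named families were those that passed, those listed at single-library ages, the 6 with most reads, and all URR1, Arthur and Cheshire rows. Alternatives covered scaling, pseudocount, filter, spread, voom weights, left-out replicates and a replicate block. GENCODE M21 gave gene coordinates.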

Additional observations from a re-analysis of the deposited data

How the results depend on the processing

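At 20 dpp, 3 members were higher and 2 lower. Total gene reads as the scale gave 25 and 2, a fit of the families alone gave 10 and 6, and it was 3 and 2 with the replicate number as a block, which pairs libraries only by number (correlation of deviations 0.02 over all features). With 1 of the 20 dpp libraries left out, the median log2 change was 0.16 to 0.43 for members. For all families it was -0.0019 to 0.23. Such fits take the spread from fewer libraries. Each member that passed, except Charlie22a, lost the call in at least 1 of them. With total gene reads the families above 0 went from 518 to 735 of 888, and their median log2 change from 0.13 to 0.72. Beside that shift, 10 of 63 members, none of them called, turned from below to above 0 and 0 the other way. Among families named by rule these were Tigger1 (0.18), Arthur1A (0.074) and Arthur1B (0.40), and Arthur1B also turned without control replicate 1 (0.35, against -0.73 to 0.35 over the libraries left out). At 16.5 dpc 4 members were listed lower at 1.5-fold and 0 with at least 200 reads. The log2 difference of summed members at 20 dpp, 0.19 as deposited, was 0.79 per 1000000 gene reads and -0.39 as a share of family reads. At 10 dpp, -0.03 as deposited, it was -0.18 as that share and 0.0024 without URR1A and URR1B, and at 16.5 dpc, -0.15 as deposited, -0.073 as that share and -0.058 with scaling by the families. The cause was not tested. L1Md and IAP reads enter the denominator of that share, and their part in its change was not tested either. Families under about 50 reads limit what can be seen.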
